A study of Mus musculus
Rattus norvegicus and Rattus norvegicus and Mus musculus with 18 samples.

Results

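Rat host transcripts were compared between lung and the outer rim of mouse mammary tumors grown in the same strain of rat. The comparison used 5 lung libraries and 5 tumor rim libraries. Of 14876 rat genes in the deposited table, 13841 reached at least 1 CPM (rat reads of a gene, scaled for library depth) in 5 or more of these 10 libraries and were tested. The hosts were SRG rats, a Sprague-Dawley line that lacks functional Rag2 and Il2rg and so makes no mature T, B or NK cells. Every host in both groups carried 4T1 cells, a single mouse mammary carcinoma line that spreads to the lung, implanted orthotopically in the mammary fat pad. The labels give no further treatment and call the genotype wild type, and the tissue was taken at 27 days. Rat3877, Rat3876, Rat3875 and Rat3869 each gave a lung and a rim, Rat3789 gave a lung and no rim, and Rat3867 gave a rim and no lung. The labels describe the lungs as holding metastases, and the rim as the part of the tumor without necrosis, so both groups are mixtures of rat host tissue and mouse tumor cells. No healthy lung and no treated group enters the comparison. Of 18 samples in the series, these 10 are described here, and values of single libraries follow the order Rat3877, Rat3876, Rat3875, Rat3869 and then Rat3789 for lung or Rat3867 for rim.

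The lung's gas exchange surface is made of thin alveolar type 1 cells and of type 2 cells that secrete surfactant, and it lies against the densest capillary bed of the body. The rim of a mammary carcinoma has another framework: fibroblasts recruited from the surrounding connective tissue lay down collagen and matrix enzymes, and macrophages, vessels and remains of the gland lie among the tumor cells. In bulk RNA of this kind fewer cells of a type and less RNA per cell cannot be told apart.

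The 10 libraries held 4900651 to 10015352 reads on rat genes. Rat reads made up 29.4 ± 4.85% of all assigned reads in the lungs and 22.7 ± 6.51% in the rims (SD, n = 5 each), a difference of 6.69 percentage points that an exact two-sided permutation test did not separate from the spread (p = 0.127). The rim of Rat3876 stood apart with 34.3%, and without it the difference was 9.59 points (exact p = 0.0159). That rim was singled out by its value, and leaving out any other single library gave an exact p of 0.119 to 0.23. A pellet of cultured 4T1 cells, which holds no rat RNA, still gave 0.718% of its reads to rat genes. Scaled by the mouse reads of each library, such misplaced reads would make up 1.25% to 3.04% of the rat reads, and they are given below for the genes in which they weigh most. The values are CPM with 0.5 reads added to each count by the authors, so a gene without reads is listed at about 0.05 to 0.11 CPM and not at 0. They are not divided by gene length, so levels are compared only within a gene.

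One library went against its label. The library labelled lung of Rat3789 correlated with the 4 other lungs at Pearson's r of 0.836 to 0.879 over log2 CPM of the 13841 genes, and with the 5 rims at 0.908 to 0.920. The 4 other lungs correlated among themselves at 0.955 to 0.974, and the rims among themselves at 0.924 to 0.961. Its defining alveolar transcripts were near the level of the rims. Sftpc, the surfactant protein made by type 2 cells, had 1.88 CPM in it, and Nkx2-1, the transcription factor of lung epithelium, had 0.0569 CPM, which is no read at all. It did not hold the rim's pattern either. Hoxc10, which is switched on in tissue of the hind part of the trunk, also had no read in it, and the mesothelial gene Lrrn4 had 25.0 CPM, close to the other lungs. Among the 1775 genes higher in the 4 other lungs than in every rim and called without this library, it lay at the level of the lungs for 406 (22.9%), between the groups for 348 (19.6%) and at the level of the rims for 1021 (57.5%). Among the 1599 genes lower in the 4 other lungs it lay at the level of the lungs for 562 (35.1%), between the groups for 574 (35.9%) and at the level of the rims for 463 (29.0%). What tissue it came from was not tested. The counts of each list are therefore given with it (10 libraries) and without it (9 libraries), and it is called the Rat3789 library below. Because it was left out for its measured profile, the 9-library fit is a repeat and not an independent test. Values of single genes come from the 10-library fit unless 9 libraries are named beside them. Every gene named below that was called with 10 libraries was also called in the same direction with 9, apart from Siglec5, Treml1 and Msln.

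**Figure D1:**
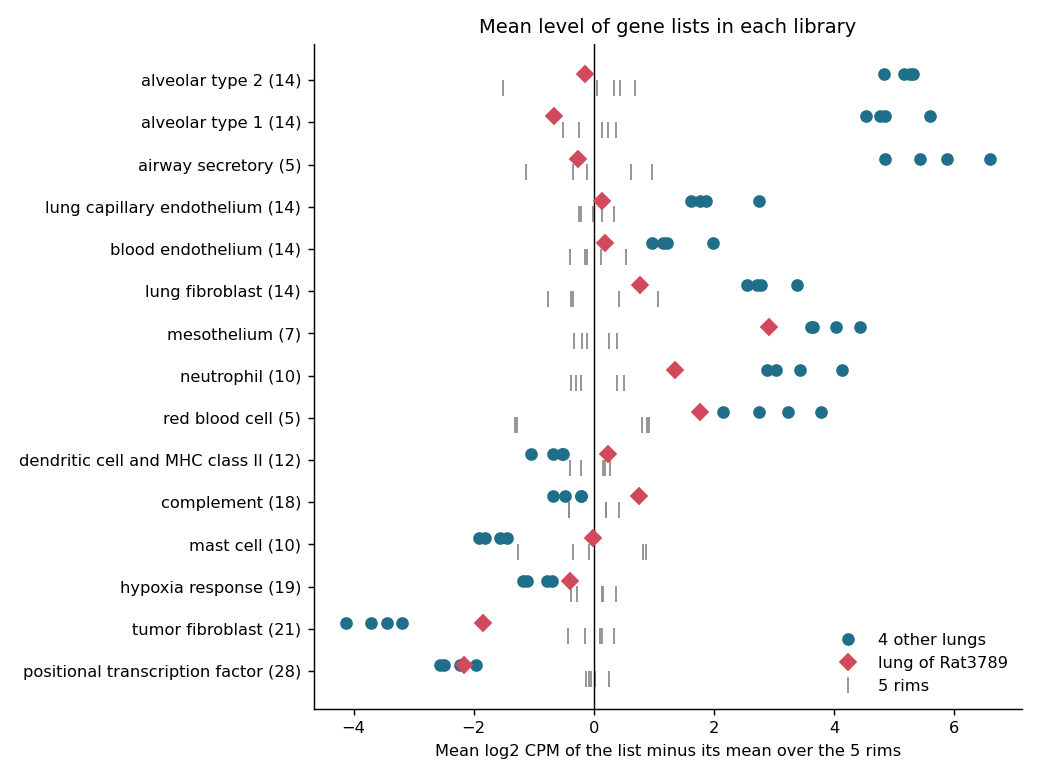
Position of every library for 15 gene lists. Each lung's mean log2 CPM over the list is drawn minus the mean of the 5 rims (horizontal axis, log2 units, 0 is the mean of the rims), with circles for 4 lungs, a diamond for the Rat3789 library and ticks for single rims. The diamond lies among or just below the rims for alveolar and airway lists, and for the mesothelial list it lies below the other lungs and far above the rims.

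With all 10 libraries, limma called 3065 of 13841 genes at a Benjamini-Hochberg adjusted p under 0.05 (22.1%). Of these, 1458 were higher in lung (10.5%) and 1607 lower (11.6%). At least a 2-fold change was reached by 661 of the higher genes (4.78% of those tested) and 889 of the lower ones (6.42%). Without the Rat3789 library 4113 genes were called (29.7%), 2137 higher (15.4%) and 1976 lower (14.3%), and 1131 (8.17%) and 987 (7.13%) of these passed 2-fold. Both fits shared 2935 calls, every one of them in the same direction. The 9-library fit alone called 1178 genes, 760 of them higher in lung, and the 10-library fit alone called 130. The values of the 4 other lungs and the 5 rims did not overlap for 3653 genes (26.4%), and those of all 5 lungs and 5 rims did not overlap for 2030 (14.7%). Scaling by total reads in place of the authors' scaling moved the median difference of all genes up by 0.129 on the log2 scale, and it turned the split of the 10-library calls to 2435 higher and 1255 lower, and that of the 9-library calls to 3325 higher and 1409 lower. Where the 4 rats that gave both tissues were compared with the rat as a block, the blocked count or value is given below only if it changes a call or moves a count by more than 1.5 times. In what follows a difference is the mean log2 CPM of the lungs minus that of the rims, with its standard error, and adjusted p-values are those of limma over all genes tested. A list is described by its calls beside the shares just given for all genes, and the lists were written with earlier results of these data known.

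Transcripts of alveolar and airway secretory epithelium were higher in lung, and the airway secretory and alveolar type 1 lists had the largest median differences of the 37 lists in either fit. Of 14 tested type 2 markers 11 were higher in lung and none lower with 10 libraries, and 13 were higher with 9 libraries. Of 14 type 1 markers 10 were higher with 10 libraries and 12 with 9. The median difference was 3.44 for the type 2 list and 4.28 for the type 1 list with 10 libraries, and 4.51 and 5.31 with 9, against 0.0197 and 0.00806 for all genes. Summed over the type 1 list, the 4 other lungs held 3385 to 6334 CPM, the Rat3789 library 511 CPM and the rims 605 to 920 CPM.

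Sftpc (ENSRNOG00000011177) had 5593, 3126, 4202, 5676 and 1.88 CPM in the lungs, against 10.03, 10.6, 14.4, 34.7 and 2.32 CPM in the rims. The 4 first lungs stood far above every rim, and the Rat3789 library stood below all 5 rims. The difference was 6.51 ± 2.02 with 10 libraries (adjusted p = 0.0408) and 8.76 ± 0.60 with 9 (adjusted p = 3.43e-06). Sftpd, a collectin of the surfactant film, had 642, 603, 774, 954 and 2.45 CPM in the lungs, against 1.85, 1.36, 0.556, 4.45 and 0.101 CPM in the rims, a difference of 8.004 ± 1.64 with 10 libraries (adjusted p = 0.00613) and 9.65 ± 0.87 with 9 (adjusted p = 1.76e-05). The other surfactant proteins behaved alike. Sftpa1 differed by 7.42 ± 1.90 with 10 libraries (adjusted p = 0.0186) and Sftpb by 7.46 ± 2.01 (adjusted p = 0.0228), and without the Rat3789 library by 9.33 ± 1.02 and 9.41 ± 1.15. Lamp3, a protein of the lamellar bodies in which surfactant is stored, averaged 218 ± 35.0 CPM in the 4 other lungs and 0.725 ± 0.598 CPM in the rims (SD, n = 4 and 5), with 0.398 CPM in the Rat3789 library. Contrasts were weaker for some other members. The lipid pump Abca3 had 248 to 366 CPM in the 4 other lungs, 129 CPM in the Rat3789 library and 58.1 to 82.6 CPM in the rims. The lysozyme Lyz2, which macrophages also make, had 7560 to 16556 CPM in the 5 lungs and 1443 to 3045 CPM in the rims. In the type 2 list 3 of 14 tested markers, Muc1 and Fasn among them, had no 10-library call, and 1 had none with 9. With the rat as a block Muc1 (adjusted p = 0.00049) and Fasn (0.0006) were called. Of 12 genes of surfactant metabolism 11 were higher in lung in either fit. That 10-library count was 7 without the lung of Rat3876, of Rat3875 or of Rat3869 or without the rim of Rat3867.

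Ager, the receptor that marks the flat type 1 cell, had 1417, 807, 897, 760 and 8.25 CPM in the lungs, against 10.2, 9.96, 12.4, 15.1 and 6.95 CPM in the rims. Its difference was 5.11 ± 1.20 with 10 libraries (adjusted p = 0.0123) and 6.47 ± 0.23 with 9 (adjusted p = 2.12e-07). The tight junction gene Cldn18 differed by 7.33 ± 1.85 (adjusted p = 0.0172) and 9.33 ± 0.72 (adjusted p = 6.87e-06). Hopx kept a contrast in every lung: it had 794, 389, 605, 523 and 159 CPM in the lungs, against 94.7, 50.02, 90.3, 71.7 and 57.3 CPM in the rims, and the groups did not overlap. The water channel Aqp5 averaged 177 ± 66.3 CPM in the 4 other lungs and 1.69 ± 1.97 CPM in the rims, with 0.284 CPM in the Rat3789 library. Scgb1a1, the secretoglobin of club cells in the airways, had 1957, 740, 2961, 2319 and 1.54 CPM in the lungs, against 5.35, 6.91, 5.90, 19.5 and 0.302 CPM in the rims, and differed by 6.69 ± 1.98 with 10 libraries (adjusted p = 0.034) and 8.73 ± 0.98 with 9 (adjusted p = 7.66e-05). Reg3g, an antibacterial lectin, and Aldh1a1, a retinal dehydrogenase, were higher by 4.64 ± 0.79 and 4.40 ± 0.90 with 10 libraries, and the call of Aldh1a1 ended under limma-voom (adjusted p = 0.249). Muc5b, an airway mucin, varied most between lungs: it had 602 CPM in the lung of Rat3875 and 8.06 to 42.3 CPM in the lungs of Rat3877, Rat3876 and Rat3869. Of 5 tested airway secretory markers 3 were higher with 10 libraries, and all 5 with 9 or with the rat as a block. Muc5b was called with 9 libraries (5.93 ± 1.28, adjusted p = 0.00528) and not by limma-voom (0.318). None of 5 tested markers of ciliated cells was called with 10 libraries, and 4 were higher with 9, a count of 2 without the lung of Rat3875 or of Rat3869 and 2 with the rat as a block. Tekt1 of these had 2.98, 1.35, 12.7, 4.77 and 0.853 CPM in the lungs, against 0.487, 1.58, 0.779, 0.495 and 0.503 CPM in the rims.

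The Rat3789 library makes the spread of these genes wide, and some of the 10-library calls ended when another library was left out. For Sftpc the call ended without any 1 of the 9 others (adjusted p = 0.0597 to 0.0943), for Aqp5 without 8 of them, all but the rim of Rat3876 (0.0618 to 0.0948), and for Scgb1a1 without 8, all but the rim of Rat3869 (0.0542 to 0.083). Sftpb lost it without the lung of Rat3877, Rat3876, Rat3875 or Rat3869 or without the rim of Rat3867 (0.0523 to 0.058). limma-voom, which weights single observations, called 5 of the alveolar type 2 list, 2 of the alveolar type 1 list and 1 of the airway secretory list with 10 libraries. With 9 libraries every gene of these 3 lists named here was called, whichever library was left out. The Rat3789 library was left out because its host profile was not alveolar, so for these lists this is no independent test. Misplaced mouse reads could account for 32% of the rim reads of Sftpa1, 28% of those of Sftpc and 27% of those of Cldn18. Subtracting the expected misplaced reads ended the 10-library calls of Sftpc (adjusted p = 0.143), Scgb1a1 (0.0748) and Aqp5 (0.0665), and no 9-library call of these genes. The pellet's rate did not hold in every rim: in that of Rat3867 it gave 19.2 expected Sftpa1 reads where 1 was counted, and 22.6 expected Sftpc reads where 11 were counted.

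**Figure D2:**
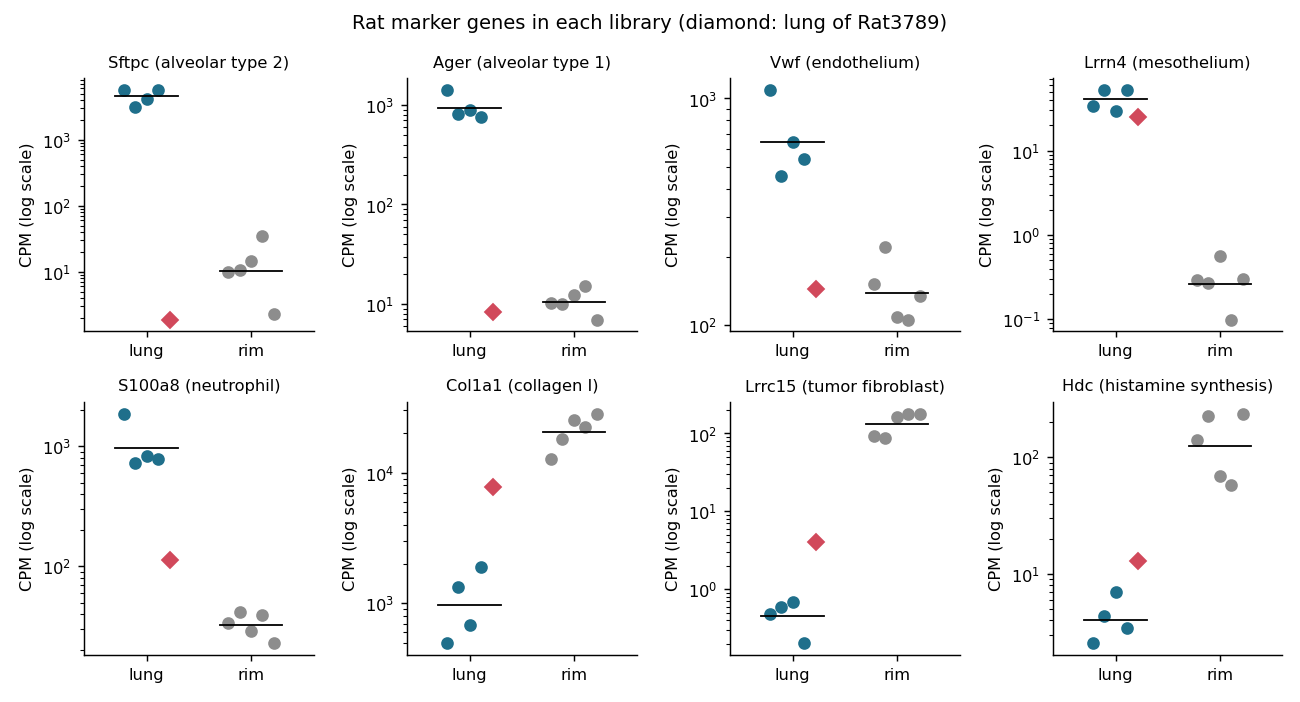
Rat CPM of 8 genes in single libraries (vertical axis, log scale), lungs on the left and rims on the right of each panel. Circles are the lungs of Rat3877, Rat3876, Rat3875 and Rat3869 and all rims, the diamond is the Rat3789 library, and black lines are geometric means of those 4 lungs and of the 5 rims. The diamond lies below all rims for Sftpc and among the rims for Ager, it lies just below the other lungs for Lrrn4, and for Col1a1 it lies between the groups.

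A small number of reads on lung epithelial genes was also counted in the rims, and it differed between libraries. For 6 lung genes the rim of each rat was set as a percentage of the mean of the 4 lungs. The median over the 6 genes was 0.232% in the rim of Rat3877, 0.235% in that of Rat3876, 0.264% in that of Rat3875, 0.731% in that of Rat3869 and 0.0143% in that of Rat3867. In the Rat3789 library it was 0.103%. In the necrotic cores of the same tumors, in the order of the rims and outside this comparison, it was 0.196%, 1.05%, 0.503%, 0.187% and 0.241%. Rat3869 thus had the highest rim and the lowest core, so the order of the rims was not that of the animals. Each of the 6 genes was highest in the rim of Rat3869, at 0.597% to 0.978%, and lowest in that of Rat3867, at 0.00539% to 0.0498% on 0 to 11 reads a gene. In the rim of Rat3875 Sftpd lay at 0.0749% and the 5 other genes at 0.194% to 0.309%. The 4T1 pellet held 33 Sftpc and 28 Sftpa1 reads on the rat genes. Whether these reads came from cells, from handling or from the sorting of reads by species was not tested.

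**Figure D3:**
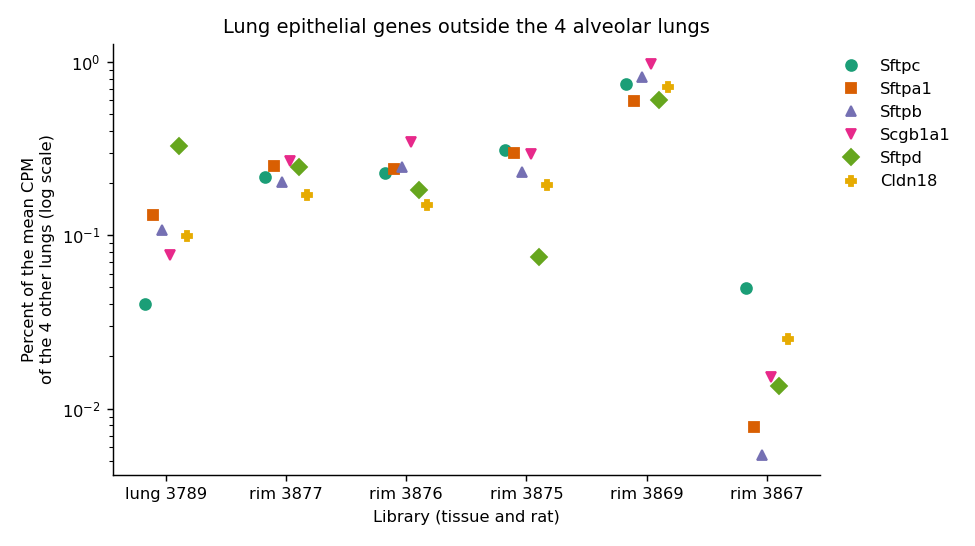
CPM of 6 lung genes in the Rat3789 library and in the 5 rims, as a percentage of their mean in the 4 other lungs (vertical axis, log scale); each point is 1 gene. The rim of Rat3869 lies highest, between 0.597% and 0.978%, and the rim of Rat3867 lowest, at 0.0498% or less.

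Endothelial transcripts were higher in lung as well, by smaller factors. Of 14 tested markers shared by blood vessels 8 were higher with 10 libraries and 12 with 9, with a median difference of 1.09 and 1.23. Vwf, the clotting factor carried by endothelium and platelets, had 1091, 456, 641, 542 and 144 CPM in the lungs, against 151, 221, 108, 105 and 134 CPM in the rims. The 4 first lungs exceeded every rim, and the Rat3789 library lay among the rims. The difference was 1.79 ± 0.45 with 10 libraries (adjusted p = 0.0175) and 2.22 ± 0.27 with 9 (adjusted p = 0.000142). Emcn, a sialomucin of capillaries and veins, was higher by 1.46 ± 0.26 (adjusted p = 0.00296), with 30.0 CPM or more in every lung and 29.4 CPM or less in every rim. Egfl7, secreted by endothelium, was higher by 1.53 ± 0.40 (adjusted p = 0.0202), a call that ended without the lung of Rat3875 (0.0508) or the rim of Rat3869 (0.0513). The 10-library count of 8 was 5 without either of these libraries, and it was 13 with the rat as a block.

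Genes of the lung's own capillaries had larger differences. Of 14 tested members 7 were higher with 10 libraries and 10 with 9, and none was lower. Bmp6, a bone morphogenetic protein that endothelium secretes, had 78.1, 53.8, 39.3, 44.6 and 13.1 CPM in the lungs, against 1.85, 2.99, 1.89, 2.08 and 1.91 CPM in the rims, and the groups did not overlap. It differed by 4.23 ± 0.40 with 10 libraries (adjusted p = 9.69e-05) and 4.63 ± 0.23 with 9 (adjusted p = 1.19e-06). Sema3c, a guidance signal, had 407 to 495 CPM in the 4 other lungs, 43.1 CPM in the Rat3789 library and 25.7 to 65.1 CPM in the rims, a difference of 2.71 ± 0.62 with 10 libraries (adjusted p = 0.0107). Ace, the angiotensin-converting enzyme on the surface of lung capillaries, had 822, 305, 516, 412 and 111 CPM in the lungs, against 94.5, 90.2, 64.9, 33.7 and 31.7 CPM in the rims, a difference of 2.66 ± 0.51 (adjusted p = 0.00447) and of 3.08 ± 0.38 with 9 libraries. Epas1, the hypoxia-inducible factor abundant in lung endothelium, had 798 to 1888 CPM in the 4 other lungs, 89.1 CPM in the Rat3789 library and 90.7 to 169 CPM in the rims. Its 10-library call (adjusted p = 0.0221) ended without any of 5 libraries, the lungs of Rat3877, Rat3876 and Rat3875 and the rims of Rat3869 and Rat3867 (0.0502 to 0.0566). Of 7 tested markers of lymphatic vessels none was called in either fit, and 1 was higher with the rat as a block. Prox1, their defining transcription factor, had 1.56 to 3.85 CPM in the lungs and 1.88 to 10.6 CPM in the rims, a difference of -0.80 ± 0.47 (adjusted p = 0.262).

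Genes of vascular tone and clotting were called in both directions. Of 18 tested members 5 were higher and 4 lower with 10 libraries, and 6 were higher and 4 lower with 9. The natriuretic peptide clearance receptor Npr3 had 52.1, 16.4, 14.2, 24.3 and 2.22 CPM in the lungs, against 0.487, 1.90, 1.00, 1.09 and 0.705 CPM in the rims (difference 3.96 ± 0.73, adjusted p = 0.00359, and 4.64 ± 0.46 with 9 libraries). Its 10-library call ended under limma-voom (adjusted p = 0.195). Adrb1, a beta-adrenergic receptor, had 5.18 CPM or more in every lung and 1.67 CPM or less in every rim (2.89 ± 0.32, adjusted p = 0.000252). Among the lower members, the plasminogen activator Plat differed by -0.81 ± 0.19 (adjusted p = 0.0133) and the nitric oxide synthase Nos3 by -0.56 ± 0.17 (adjusted p = 0.0404). The call of Nos3 ended under total-count scaling (0.0845) and without the lung or the rim of Rat3876, Rat3875 or Rat3869 (0.0653 to 0.0923). With the rat as a block 2 members were lower, and Nos3 (adjusted p = 0.0541) and Plat (0.0763) were not called there. F3, the tissue factor that starts clotting, was called by limma with 9 libraries and not with 10 (adjusted p = 0.0633): it had 314 to 512 CPM in the 4 other lungs, 16.4 CPM in the Rat3789 library and 29.9 to 63.5 CPM in the rims (3.31 ± 0.23 with 9 libraries, adjusted p = 3.43e-06). With 10 libraries edgeR (0.00977), DESeq2 (0.000136) and library weights (0.000972) called it. So did the rat as a block (0.000345), whose estimate rests on the rats that gave both tissues and not on the Rat3789 library.

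Genes of the tumor fibroblast list were lower in lung, with the lowest median of the 37 lists. Of 21 tested markers of tumor fibroblasts 19 were lower in lung and none higher, in both fits, with a median difference of -2.90 with 10 libraries and -3.30 with 9. Leaving out any 1 library gave 19 to 21. Lrrc15 (ENSRNOG00000038539), a membrane protein of activated fibroblasts, had 0.487, 0.592, 0.696, 0.202 and 4.04 CPM in the lungs, against 93.5, 87.6, 163, 180 and 177 CPM in the rims. It differed by -7.59 ± 0.65 with 10 libraries (adjusted p = 6.39e-05) and -8.22 ± 0.37 with 9 (adjusted p = 5.49e-07). Thy1, a surface marker of many fibroblasts, had 8.93, 21.0, 11.4, 14.0 and 107 CPM in the lungs, against 409, 508, 725, 599 and 788 CPM in the rims (-4.88 ± 0.57, adjusted p = 0.000312, and -5.49 ± 0.25 with 9 libraries). The proteoglycan Lum had 15.9, 26.1, 22.9, 22.4 and 513 CPM in the lungs, against 815, 1285, 2168, 1131 and 1295 CPM in the rims (-4.97 ± 0.82, adjusted p = 0.00207, and -5.89 ± 0.24 with 9 libraries). In each of these genes the Rat3789 library was the highest lung and still below every rim. Collagen I followed the same order: Col1a1 had 494, 1344, 681, 1911 and 7722 CPM in the lungs, against 12737, 18079, 25202, 22407 and 28214 CPM in the rims (-3.81 ± 0.64, adjusted p = 0.00225, and -4.41 ± 0.39 with 9 libraries). Postn, a matricellular protein, differed by -3.61 ± 0.31 (adjusted p = 6.39e-05), with a Rat3789 value of 560 CPM inside the range of 361 to 560 CPM of the lungs. The list's members that limma did not call in either fit were Fn1, a fibronectin that many cells make (-0.70 ± 0.25, adjusted p = 0.0674), and Tnc (-1.12 ± 0.40, adjusted p = 0.07). With 10 libraries DESeq2 (0.0166) and library weights (0.0296) called Fn1. Tnc was called there by DESeq2 (0.04), library weights (0.0484) and the rat as a block (0.0396).

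Among genes with a mean log2 CPM of 2 or more, called in both fits and with lungs and rims apart, 5 of the 10 largest decreases were on no list. Gpr83, a G protein-coupled receptor, had 0.271, 1.78, 0.882, 1.01 and 2.22 CPM in the lungs, against 47.4, 106, 76.7, 54.5 and 160 CPM in the rims (-6.35 ± 0.54, adjusted p = 6.39e-05). Plekhg4 had 0.162 to 0.882 CPM in the lungs and 14.3 to 81.6 CPM in the rims (-6.10 ± 0.57), and Fam131b had 0.325 to 2.56 CPM in the lungs and 16.01 to 39.1 CPM in the rims (-5.19 ± 0.49). Misplaced mouse reads could make up 45% of the 40 lung reads of Fam131b. The adrenergic receptor Adra2a differed by -4.92 ± 0.77 (adjusted p = 0.00144) and the membrane protein Itm2a by -4.75 ± 0.37 (adjusted p = 3.66e-05). None of the lungs overlapped the rims in any of these 5 genes. Among the 10 largest increases chosen in the same way, Wfdc21, of the whey acidic protein family, was the one on no list that held in the Rat3789 library: it had 30.8, 58.3, 43.3, 187 and 59.5 CPM in the lungs, against 0.487, 0.163, 0.111, 0.693 and 0.302 CPM in the rims (7.75 ± 0.59, adjusted p = 3.66e-05). Retnla and Ly6i rose by 6.67 ± 1.83 and 7.35 ± 1.62, with 0.171 and 1.65 CPM in the Rat3789 library. The call of Retnla ended without any of 5 libraries, the lungs of Rat3877, Rat3876, Rat3875 and Rat3869 and the rim of Rat3867 (adjusted p = 0.0559 to 0.0635), and 81% of the rim reads of Ly6i could be misplaced mouse reads.

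The lung's own fibroblasts had a different set of genes. Of 14 tested lung fibroblast markers 7 were higher in lung and none lower with 10 libraries, and 9 were higher and 1 lower with 9. Gpc3, a glypican, had 146, 86.1, 125, 153 and 20.1 CPM in the lungs, against 1.27, 2.45, 0.556, 1.88 and 0.302 CPM in the rims (6.44 ± 0.68, adjusted p = 0.000182, and 6.97 ± 0.55 with 9 libraries), and the groups did not overlap. Tcf21, a transcription factor of alveolar fibroblasts, had 82.9, 38.8, 45.2, 52.9 and 0.967 CPM in the lungs, against 0.292, 1.14, 0.111, 0.0990 and 0.101 CPM in the rims (6.84 ± 1.19, adjusted p = 0.00264, and 7.998 ± 0.69 with 9 libraries). Foxf1, a forkhead factor of lung mesenchyme and endothelium, averaged 98.0 ± 41.7 CPM in the 4 other lungs and 1.25 ± 0.733 CPM in the rims, with 1.99 CPM in the Rat3789 library (5.29 ± 1.03, adjusted p = 0.00485). limma-voom ended the 10-library calls of Tcf21 (0.335) and Foxf1 (0.34). The chemokine Cxcl14 was the member that limma called lower, with 9 libraries (-1.94 ± 0.66, adjusted p = 0.0475) and not with 10 (0.117). With 10 libraries DESeq2 (0.0273) and library weights (0.03) called it, and so did the rat as a block (0.0123), which rests on the paired rats alone. The 9-library call ended under total-count scaling (0.0635), limma-voom (0.0592) and subtraction of the expected misplaced reads (0.0517), and without any of 6 libraries (0.0577 to 0.123), the lungs of Rat3876, Rat3875 and Rat3869 and the rims of Rat3877, Rat3876 and Rat3869. Of 15 tested pericyte and smooth muscle genes 6 were lower and none higher with 10 libraries, and 6 were lower and 1 higher with 9. Acta2, the smooth muscle actin that activated fibroblasts also make, had 173, 140, 162, 191 and 115 CPM in the lungs, against 675, 793, 652, 1201 and 837 CPM in the rims (-2.40 ± 0.18, adjusted p = 3.66e-05, and -2.29 ± 0.17 with 9 libraries). Pdgfrb, the growth factor receptor of pericytes and fibroblasts, differed by -1.97 ± 0.26 (adjusted p = 0.000552) and the pericyte gene Rgs5 by -1.55 ± 0.29 (adjusted p = 0.00387). Myh11, the myosin that defines mature smooth muscle, differed by 0.03 with 10 libraries and was not called.

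Genes of the extracellular matrix were called in both directions. Among 14 tested matrix metalloproteinases and their inhibitors 9 were lower in lung with either number of libraries, and 1 was higher with 10 and 4 with 9 or with the rat as a block. Mmp13, a collagenase, had 0.0541, 0.484, 0.232, 0.202 and 0.284 CPM in the lungs, against 12.0, 19.2, 11.02, 14.3 and 46.6 CPM in the rims (-6.44 ± 0.60, adjusted p = 8.69e-05). Mmp3, a stromelysin, had 0.202 to 0.379 CPM in the lungs and 3.86 to 16.7 CPM in the rims (-5.23 ± 0.45, adjusted p = 6.39e-05). Misplaced reads could make up 40% of the few lung reads of Mmp13 and 36% of those of Mmp3. Timp3, an inhibitor bound to matrix, was the member higher with 10 libraries. It had 1438, 634, 1154, 897 and 36.0 CPM in the lungs, against 99.97, 81.7, 88.0, 75.3 and 75.4 CPM in the rims, and the Rat3789 library lay below every rim. Its difference was 2.60 ± 0.85 with 10 libraries (adjusted p = 0.049), a call that ended without any 1 of the 9 others (0.0749 to 0.113), and 3.56 ± 0.20 with 9 libraries (adjusted p = 1.68e-06).

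Of 13 tested elastic fibre genes 2 were higher in lung and 8 lower with 10 libraries, and 2 were higher and 10 lower with 9. Eln, elastin itself, had 909, 656, 1227, 1192 and 1461 CPM in the lungs, against 521, 979, 300, 134 and 148 CPM in the rims (1.74 ± 0.50, adjusted p = 0.031). The rim of Rat3876 overlapped the lungs, and the call ended with the rat as a block (adjusted p = 0.12) and without any of 6 libraries (0.0535 to 0.0722), the lungs of Rat3877, Rat3875 and Rat3869 and the rims of Rat3875, Rat3869 and Rat3867. Ltbp2, a latent TGF-beta binding protein, was higher by 1.44 ± 0.28 (adjusted p = 0.00463). Fbln2, a fibulin, had 17.5, 95.9, 16.4, 51.6 and 248 CPM in the lungs, against 746, 998, 995, 1015 and 1093 CPM in the rims (-4.23 ± 0.65, adjusted p = 0.00134), and the microfibril gene Mfap5 differed by -3.07 ± 0.54 (adjusted p = 0.00275). The basement membrane list divided evenly, with 6 of 18 higher and 6 lower with 10 libraries, and 9 higher and 6 lower with 9. Its higher members included the minor collagen IV chains. Col4a3 had 88.2, 47.4, 70.8, 35.6 and 10.7 CPM in the lungs, against 2.04, 0.708, 1.00, 0.891 and 0.705 CPM in the rims (5.38 ± 0.53, adjusted p = 0.00012), a 10-library call that ended under limma-voom (0.0611). Col4a4 differed by 4.33 ± 0.40 (adjusted p = 7.78e-05) and Col4a6 by 4.65 ± 0.63 (adjusted p = 0.000712). The major chains Col4a1 and Col4a2 differed by -0.05 and -0.17 and were not called. The lower members included Lamb1 (-1.99 ± 0.27, adjusted p = 0.000708) and the linker protein Nid1 (-1.97 ± 0.25, adjusted p = 0.000445), with 139 to 391 CPM of Nid1 in the lungs and 624 to 830 CPM in the rims.

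**Figure D4:**
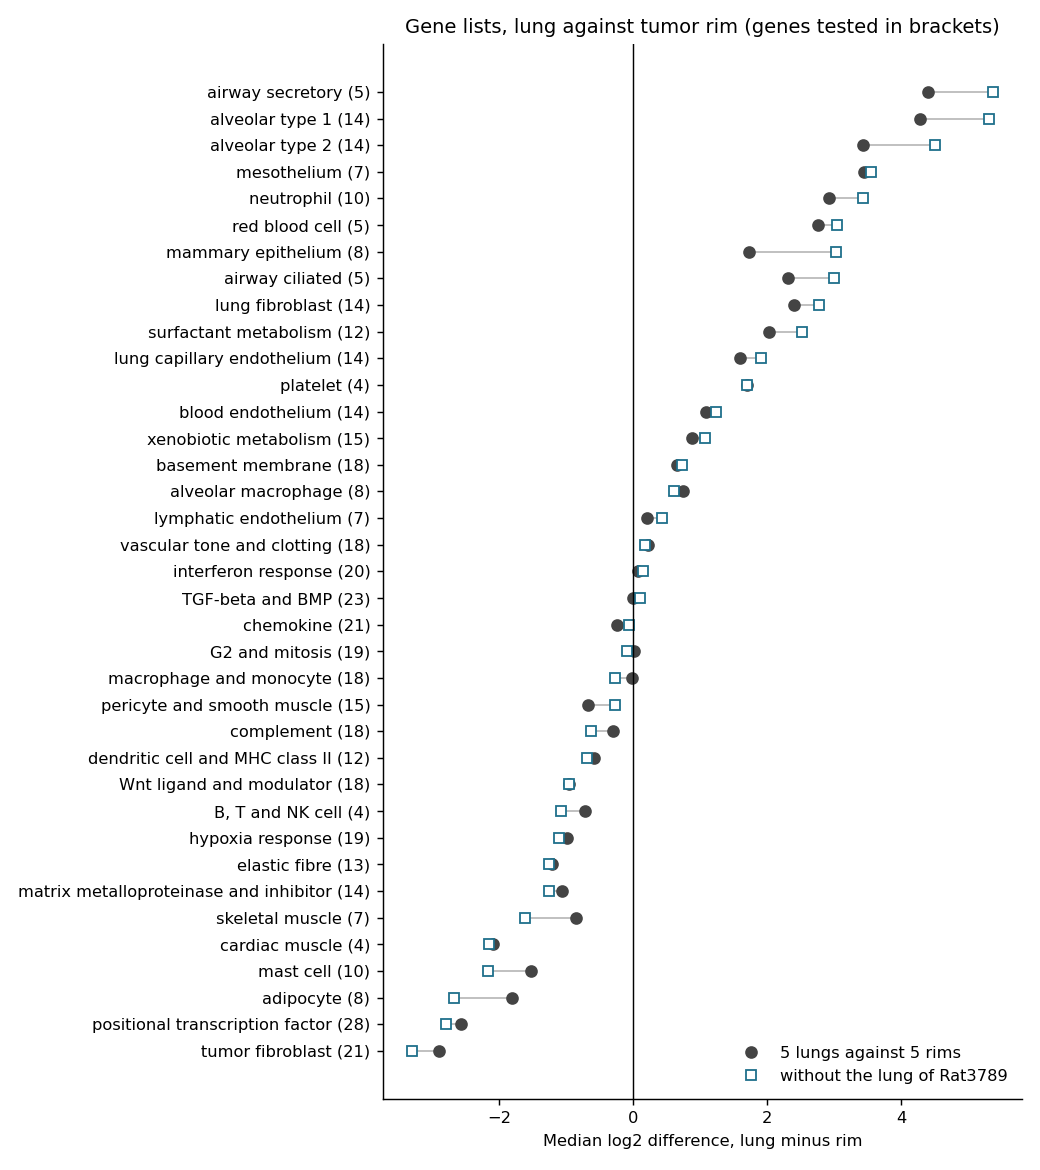
Median log2 difference, lung minus rim, of 37 gene lists (horizontal axis) with all 10 libraries (filled points) and without the Rat3789 library (open squares). The airway secretory list (4.40 with 10 libraries) and the alveolar type 1 list (4.28) lie farthest to the right, and the tumor fibroblast list farthest to the left, with -2.90.

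Transcription factors that mark a position along the body axis were lower in lung for many members. Of 28 tested members 16 were lower in lung in both fits, and 3 were higher with 10 libraries and 7 with 9. Nkx2-1, Foxa2 and Tbx4, also on the list, were not tested, because in 4 lungs alone they could not reach 1 CPM in 5 libraries. In the 4 other lungs they had 104 to 163, 18.6 to 30.4 and 45.5 to 75.2 CPM, against at most 0.693 CPM in the rims. Genes read in the rims alone, such as Hoxc10, could pass through 5 rims, so these counts favor the lower side. Members of the HoxC and HoxD clusters and limb mesenchyme factors were among the lower ones. Hoxc10 (ENSRNOG00000016149) had no read in any lung, against 10.4, 10.9, 19.5, 12.2 and 7.35 CPM in the rims. Set against 3 reads over the lung group, that is at least 181-fold lower in lung. Tbx15, a T-box factor of trunk mesenchyme, had 0.162, 0.0538, 0.0464, 0.336 and 0.512 CPM in the lungs, against 14.1, 15.6, 23.3, 16.7 and 33.5 CPM in the rims (-7.05 ± 0.67, adjusted p = 9.48e-05), and the misplaced reads expected in the lungs exceed those counted there. Hoxc8 had 0.0538 to 0.398 CPM in the lungs and 8.86 to 20.03 CPM in the rims (-6.84 ± 0.58, adjusted p = 6.39e-05), and Shox2 had 0.0464 to 0.512 CPM in the lungs and 6.34 to 21.1 CPM in the rims (-6.36 ± 0.61, adjusted p = 9.88e-05). The Rat3789 library kept the low values of the lungs for all 4 of these genes. Hoxb4 was not called: it had 5.04 to 9.50 CPM in the lungs and 6.34 to 10.2 CPM in the rims (-0.28 ± 0.21, adjusted p = 0.386). The members higher with 10 libraries were Foxf1, Tbx5 and Gata6. Tbx5, a factor of lung and heart mesenchyme, had 18.7, 13.2, 14.6, 11.8 and 4.72 CPM in the lungs, against 0.0973, 1.03, 2.34, 0.891 and 2.72 CPM in the rims (3.68 ± 0.82, adjusted p = 0.00938). Gata6, a factor of endoderm, heart and smooth muscle, had 12.7 CPM or more in every lung and 7.62 CPM or less in every rim (1.69 ± 0.27, adjusted p = 0.0016). With the rat as a block 6 members were higher.

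**Figure D5:**
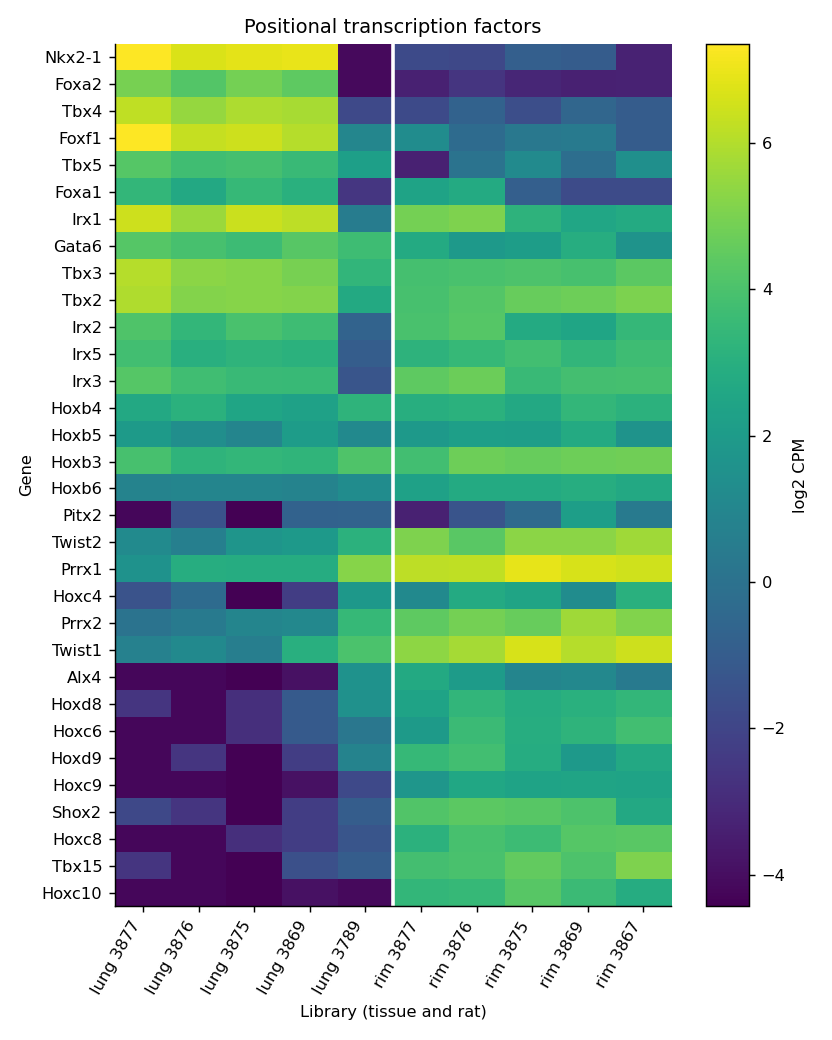
Heat map of log2 CPM of 32 positional transcription factors in the 10 libraries, lungs left of the white line and rims right of it, colour from low to high. Hoxc10, Tbx15, Hoxc8 and Shox2 are dark in all 5 lungs and bright in all 5 rims, and Nkx2-1 is bright in 4 lungs and dark in the Rat3789 library.

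Secreted signals of the Wnt and TGF-beta families were called in both directions. Of 18 tested Wnt ligands and modulators 2 were higher and 8 lower with 10 libraries, and 4 were higher and 8 lower with 9. Wnt3a and Wnt7a, also on the list, reached 1 CPM in 4 lungs alone and so were not tested. Wnt3a had 16.3 to 31.3 CPM in the 4 other lungs and 0.292 CPM or less in the rims. Wnt7a had 12.4 to 27.3 CPM in them and 0.495 CPM or less in the rims. Sfrp4, a secreted Wnt antagonist, had 0.920, 3.39, 2.55, 0.739 and 115 CPM in the lungs, against 681, 1559, 401, 203 and 117 CPM in the rims (-6.76 ± 1.27, adjusted p = 0.00392). The Rat3789 library lay just under the lowest rim. Ccn4, a matricellular protein that Wnt signals induce, had 3.73, 6.51, 5.34, 7.19 and 10.5 CPM in the lungs, against 53.1, 43.1, 77.3, 81.8 and 74.2 CPM in the rims (-3.35 ± 0.27, adjusted p = 5.49e-05). Wnt4 was higher in every lung, with 45.5 CPM or more, than in any rim, with 31.7 CPM or less (1.77 ± 0.36, adjusted p = 0.00584). Wif1, another Wnt antagonist, had 46.2 to 68.0 CPM in the 4 other lungs, 0.284 CPM in the Rat3789 library and 1.36 to 4.73 CPM in the rims, and was called by limma with 9 libraries (4.496 ± 0.35, adjusted p = 6.93e-06) and not with 10 (0.149). With 10 libraries edgeR (0.00973), DESeq2 (0.000146) and library weights (0.00345) called it, and so did the rat as a block (0.000135), which rests on the paired rats alone. Of 23 tested TGF-beta and BMP genes 4 were higher and 7 lower with 10 libraries, and 9 were higher and 7 lower with 9. Grem1, which binds and blocks BMP ligands, had 0.812, 2.31, 3.39, 3.16 and 6.31 CPM in the lungs, against 93.4, 52.0, 82.2, 180 and 72.2 CPM in the rims (-5.06 ± 0.50, adjusted p = 0.000114), while the BMP ligand Bmp6 was higher as given above. Inhba, a subunit of activin, had 4.49 to 19.1 CPM in the lungs and 62.4 to 169 CPM in the rims (-3.50 ± 0.38, adjusted p = 0.00019). The count of 4 higher members was 2 without the lung of Rat3877, Rat3876, Rat3875 or Rat3869 or the rim of Rat3875 or Rat3869, and 7 with the rat as a block.

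Markers of the mesothelium, the sheet of cells that covers the lung, were higher in lung. Of 7 tested members 6 were higher and none lower with 10 libraries or with 9, and limma-voom called 4 of them with 10. Msln was called with 10 libraries and not with 9, and Krt19 with 9 and not with 10. The call of Msln ended under edgeR (adjusted p = 0.0507), limma-voom (0.0507) and upper-quartile scaling (0.0547). It also ended without any of 7 libraries (0.055 to 0.108), the lungs of Rat3876, Rat3875 and Rat3869 and the rims of Rat3877, Rat3876, Rat3869 and Rat3867. The mean log2 CPM of the list lay above the mean of the rims by 3.62 to 4.43 in the 4 other lungs and by 2.92 in the Rat3789 library, and single rims lay at -0.333 to 0.394. Of the 6 members called with 9 libraries, the Rat3789 library lay at the level of the lungs for 2, between the groups for 3 and at the level of the rims for 1. Lrrn4 (ENSRNOG00000032989) had 34.3, 52.6, 29.6, 51.8 and 25.0 CPM in the lungs, against 0.292, 0.272, 0.556, 0.0990 and 0.302 CPM in the rims (7.12 ± 0.43, adjusted p = 1.51e-05). Misplaced mouse reads could account for 57% of its rim reads. Upk3b, a uroplakin of mesothelium, had 17.0, 21.3, 13.4, 16.5 and 7.34 CPM in the lungs, against 0.302 CPM or less and 1 read in all in the rims. Upk1b had 24.6 to 56.0 CPM in the lungs and 2.43 to 4.74 CPM in the rims (3.45 ± 0.26, adjusted p = 3.66e-05). Wt1, a transcription factor of mesothelial cells, was highest in the lungs of Rat3869 (33.9 CPM) and Rat3789 (34.3 CPM), against 2.11 to 5.74 CPM in the rims, and its 10-library call ended under limma-voom (0.0587).

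Rims also carried transcripts of the gland and fat in which the tumors grew, in some animals more than in others. The milk protein Csn3 had 0.418 CPM or less in every lung, against 117, 311, 4.34, 1.68 and 0.302 CPM in the rims, and Lalba had 0.325 CPM or less in every lung, against 76.0, 172, 1.22, 0.693 and 0.101 CPM in the rims. Neither was tested, since too few libraries reached the minimum. The keratins Krt8 and Krt18, which alveolar and mammary epithelium both make, were the mammary list's 2 called members with 10 libraries and were higher in lung. Krt8 had 274, 283, 233, 316 and 27.8 CPM in the lungs, against 58.1, 54.0, 4.34, 6.04 and 2.72 CPM in the rims (3.89 ± 0.99, adjusted p = 0.0183). The call of Krt18 (adjusted p = 0.03) ended without any of 7 libraries, all 4 other lungs and the rims of Rat3875, Rat3869 and Rat3867 (0.0654 to 0.0738), and also under limma-voom (0.173) and after subtraction of the expected misplaced reads (0.179). Both keratins were highest among the rims in those of Rat3877 and Rat3876, which held the milk transcripts. With 9 libraries 3 members were higher, a count of 5 without the rim of Rat3877 or of Rat3876. The fat hormone Adipoq had 0.595, 0.377, 0.789, 2.49 and 61.7 CPM in the lungs, against 32.6, 117, 2.34, 3.07 and 5.94 CPM in the rims, so the Rat3789 library stood above the 4 other lungs and 4 of the 5 rims. Of 8 tested adipocyte genes 1, the adipsin gene Cfd, was lower with 10 libraries (-1.96 ± 0.63, adjusted p = 0.0485), a call that ended without any 1 of the 9 other libraries (0.0502 to 0.108). With 9 libraries 3 were lower, a count of 5 without the rim of Rat3869 and 2 without the rim of Rat3877 or the lung of Rat3877, Rat3876 or Rat3875. No skeletal muscle gene was called in either fit. Myh4, a fast muscle myosin, had 3.08, 24.2, 7.01, 747 and 313 CPM in the lungs, against 2.43, 471, 197, 314 and 342 CPM in the rims, and the 4T1 pellet held 3120 reads on this rat gene. Of 4 tested cardiac genes 1 was lower in either fit, Tnnt2 (-1.30 ± 0.34, adjusted p = 0.0205), and it was not called without the rim of Rat3875, Rat3869 or Rat3867 (0.0513 to 0.0524). Without the rim of Rat3877 there were 3 lower cardiac genes, and 2 with the rat as a block.

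Red cell transcripts were higher in lung, as were a few platelet transcripts. All 5 tested red cell genes were higher in both fits. Hbb, a beta globin, had 502, 1326, 785, 539 and 281 CPM in the lungs, against 36.1, 156, 184, 131 and 33.3 CPM in the rims (2.82 ± 0.56, adjusted p = 0.00547). Hba-a1 differed by 2.77 ± 0.56 (adjusted p = 0.00577), though reads of its near-identical copy Hba-a2 may be split between the genes. Slc4a1, the red cell anion exchanger, was called in both fits, and without each of 4 libraries it was not: the lungs of Rat3876, Rat3875 and Rat3869 and the rim of Rat3877 (0.0594 to 0.0716 with 10 libraries, 0.0525 to 0.0827 with 9). The labels do not say whether the lungs were perfused. Of 4 tested platelet genes 2 were higher with 10 libraries. The platelet integrin Itga2b had 6.77 CPM or more in every lung and 5.28 CPM or less in every rim (2.08 ± 0.38, adjusted p = 0.00349). Treml1 (adjusted p = 0.0427) was not called without any of 7 libraries, the 4 other lungs and the rims of Rat3877, Rat3876 and Rat3869 (0.0505 to 0.0919), or with 9 libraries (0.0609), which leaves 1 platelet gene. The platelet chemokine Pf4, which macrophages also make, had 34.4 to 115 CPM in the lungs and 45.0 to 69.1 CPM in the rims (-0.03 ± 0.27).

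Neutrophil transcripts were higher in lung than in the rim for 7 of 10 tested genes with 10 libraries and 8 with 9, and none was lower. S100a8, a subunit of the calprotectin complex of neutrophil cytosol, had 1874, 733, 835, 783 and 114 CPM in the lungs, against 34.0, 41.6, 28.8, 39.5 and 22.9 CPM in the rims (4.28 ± 0.59, adjusted p = 0.000752). Its partner S100a9 had 2655, 1170, 1245, 1172 and 150 CPM in the lungs, against 54.6, 67.3, 47.3, 53.1 and 31.7 CPM in the rims (4.23 ± 0.62, adjusted p = 0.00103). Every lung was above every rim for both genes, the Rat3789 library included. Mmp8, the neutrophil collagenase, differed by 4.22 ± 0.66 (adjusted p = 0.00149), a 10-library call that ended under limma-voom (0.111), and Csf3r, the receptor of the growth factor that drives neutrophil output, by 2.46 ± 0.36 (adjusted p = 0.00101). The lung with the highest values of S100a8, S100a9, Mmp8 and Csf3r was that of Rat3877. All 5 red cell genes, and 2 of 4 platelet genes with 10 libraries, were higher in lung too, and their part in this result was not tested.

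Genes of the general macrophage list were either lower in lung or not called. Of 18 tested macrophage and monocyte genes 3 were lower in lung with 10 libraries and 6 with 9 or with the rat as a block, and none was higher. Over all genes 11.6% were lower with 10 libraries and 14.3% with 9. Cd68, a lysosomal protein of macrophages, had 192 to 438 CPM in the lungs and 177 to 294 CPM in the rims (0.23 ± 0.21, adjusted p = 0.475), and the growth factor receptor Csf1r differed by 0.45 ± 0.27 (adjusted p = 0.264). The 3 lower genes mark particular states. Arg1, arginase, had 17.8, 19.7, 27.9, 46.0 and 14.0 CPM in the lungs, against 169, 132, 152, 194 and 245 CPM in the rims (-2.93 ± 0.29, adjusted p = 0.000126). Apoe, which macrophages and other cells secrete, had 580 to 2918 CPM in the lungs and 4557 to 7306 CPM in the rims (-2.32 ± 0.39, adjusted p = 0.00212). Cd163, the haemoglobin scavenger receptor of tissue macrophages, had 76.6, 152, 349, 270 and 1712 CPM in the lungs, against 1518, 1145, 2783, 864 and 2167 CPM in the rims. The Rat3789 library lay within the rims for this gene, and the 10-library call (-2.45 ± 0.70, adjusted p = 0.0293) ended without any of 7 libraries, the 4 other lungs and the rims of Rat3877, Rat3875 and Rat3867 (0.0522 to 0.0725). Of 8 tested alveolar macrophage genes 1 was higher and 1 lower with 10 libraries, and 3 were higher with 9 and 4 with the rat as a block. Lpl, lipoprotein lipase, was the lower one (-1.37 ± 0.17, adjusted p = 0.000464), and Siglec5 the higher one (0.99 ± 0.32, adjusted p = 0.0496), whose call ended without any of 6 libraries, the lungs and rims of Rat3877 and Rat3875, the lung of Rat3876 and the rim of Rat3869 (0.0818 to 0.111), and with 9 libraries (0.0713). Summed over that list, the lungs held 790 to 943 CPM and the rims 964 to 1248 CPM.

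Of 10 tested mast cell genes 3 were lower and none higher with 10 libraries, and 6 were lower and 1 higher with 9. With the rat as a block 5 were lower and 2 higher. Hdc, the enzyme that makes histamine, had 2.54, 4.36, 7.01, 3.43 and 13.0 CPM in the lungs, against 140, 226, 68.9, 57.5 and 236 CPM in the rims (-4.61 ± 0.52, adjusted p = 0.000256). Cpa3, a mast cell carboxypeptidase, had 5.47, 7.48, 7.84, 4.64 and 36.5 CPM in the lungs, against 56.9, 81.4, 26.8, 13.4 and 23.3 CPM in the rims, and the Rat3789 library overlapped the rims. Its 10-library call (adjusted p = 0.0489) ended without any of 8 libraries, all but the rim of Rat3869 (0.0692 to 0.107), and under total-count scaling (0.0539), and that of Fcer1a, a chain of the IgE receptor (-2.41 ± 0.68, adjusted p = 0.0284), without any of 6, the lung and rim of Rat3877, the lungs of Rat3875 and Rat3869 and the rims of Rat3876 and Rat3867 (0.0585 to 0.0692). The 10-library count was 1 without the lung of Rat3877, Rat3875 or Rat3869 or the rim of Rat3877, Rat3876 or Rat3867. The higher gene was Gata2, a transcription factor that endothelium also uses (2.45 ± 0.39 with 9 libraries, adjusted p = 0.000829).

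Summed over the B, T and NK list, the lungs held 113 to 404 CPM and the rims 197 to 312 CPM. Which cells these transcripts came from was not tested. Of the 15 members of the list 11 were not tested, Rag2 among them. Of the 15, 10 had no entry under a symbol of their own in the deposited rat values. Il2rg, the other gene disabled in these hosts, still had 19.3, 19.9, 14.1, 12.6 and 9.73 CPM in the lungs, against 19.6, 19.2, 15.2, 17.1 and 17.6 CPM in the rims (-0.28 ± 0.20, adjusted p = 0.348). A count over the whole gene does not show whether the deleted stretch is present, so it does not check the genotype. Cd8a was lower in lung with 10 libraries (-1.61 ± 0.42, adjusted p = 0.0206), and the call ended without the lung of Rat3875 (0.0523) or the rim of Rat3875 (0.0507). Without the Rat3789 library it also ended without the lung of Rat3869 (0.0511) or Rat3875 (0.0574). With 9 libraries or with the rat as a block 2 members were lower. None of 12 tested dendritic cell and MHC class II genes was called with 10 libraries, where the Rat3789 library held the highest value of Cd74, the invariant chain (7713 CPM, against 1477 to 2975 CPM in the 4 other lungs and 2800 to 5170 CPM in the rims). With 9 libraries or with the rat as a block 6 were lower, among them RT1-Da (-1.14 ± 0.24, adjusted p = 0.00429). RT1 genes have close copies among which reads may be split.

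Chemokines were called in both directions, as were genes at large. Of 21 tested 3 were higher and 3 lower with 10 libraries, and 5 and 3 with 9. Over all genes 10.5% were higher and 11.6% lower with 10 libraries, and 15.4% and 14.3% with 9. Cxcl3, a neutrophil attractant, had 312, 152, 243, 244 and 1.65 CPM in the lungs, against 3.41, 0.599, 2.56, 3.46 and 0.906 CPM in the rims (5.62 ± 1.32, adjusted p = 0.0124, and 7.04 ± 0.52 with 9 libraries). Its 10-library call ended under limma-voom (0.358). Cxcl13, which attracts B cells, had 6.33, 18.2, 11.2, 14.99 and 28.2 CPM in the lungs, against 227, 212, 182, 86.8 and 294 CPM in the rims (-3.73 ± 0.41, adjusted p = 0.000209). Ccl6 was higher (1.34 ± 0.16, adjusted p = 0.000317) and the monocyte attractant Ccl7 lower (-1.45 ± 0.26, adjusted p = 0.00334). With the rat as a block 5 chemokines were higher and 5 lower, and with 9 libraries 6 were lower without the rim of Rat3867 and 2 without the rim of Rat3875 or the lung of Rat3877, Rat3876 or Rat3875. Complement genes split as well, 4 of 18 higher and 4 lower with 10 libraries, and 4 and 10 with 9 or with the block. C3, the component on which all complement pathways meet, had 105, 124, 139, 220 and 107 CPM in the lungs, against 15.5, 15.5, 22.6, 17.3 and 7.55 CPM in the rims (3.18 ± 0.29, adjusted p = 7.59e-05). C4b had 61.1 to 85.4 CPM in the 4 other lungs, 578 CPM in the Rat3789 library and 218 to 959 CPM in the rims (-2.16 ± 0.65, adjusted p = 0.0354), a call that ended without any of 7 libraries, the 4 other lungs and the rims of Rat3877, Rat3876 and Rat3875 (0.074 to 0.0853). The count of 4 lower members was 0 without the lung of Rat3876 or Rat3875. Few interferon-induced genes were called: 1 of 20 was higher with 10 libraries, Ifit1 (3.14 ± 0.63, adjusted p = 0.00545; 0.157 under limma-voom), and 2 with 9. The 9-library count was 1 without the lung of Rat3877 or Rat3875 or the rim of Rat3875, and 5 without the rim of Rat3877, and 4 genes were higher with the rat as a block.

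Genes induced by low oxygen were lower in lung. Of 19 tested 11 were lower and none higher with 10 libraries, and 14 were lower with 9. Bnip3, a mitochondrial protein that hypoxia induces, had 31.8, 38.0, 65.1, 64.7 and 119 CPM in the lungs, against 206, 121, 231, 245 and 123 CPM in the rims (-1.63 ± 0.35, adjusted p = 0.00817). The collagen prolyl hydroxylase P4ha1 had 101 to 170 CPM in the 4 other lungs, 339 CPM in the Rat3789 library and 334 to 412 CPM in the rims (-1.20 ± 0.27, adjusted p = 0.00922), and the glucose transporter Slc2a1 differed by -1.27 ± 0.33 (adjusted p = 0.0183). Egln3, an oxygen sensor, was lower by the 10-library fit (-1.52 ± 0.45, adjusted p = 0.0354), a call that ended without any of 6 libraries, the lungs and rims of Rat3877 and Rat3875, the lung of Rat3876 and the rim of Rat3869 (0.0684 to 0.0849). Genes of G2 and mitosis had a median difference of 0.0152 with 10 libraries: 1 of 19 was called, Aurka (0.47 ± 0.12, adjusted p = 0.015), and its 9-library call ended without the lung of Rat3875 (0.0566). The proliferation marker Mki67 had 136 to 248 CPM in the lungs and 139 to 224 CPM in the rims (0.03 ± 0.17).

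Of 15 tested enzymes that process foreign compounds 7 were higher in lung and 1 lower with 10 libraries, and 8 were higher and 2 lower with 9. limma-voom called 1 higher with 10 libraries. Ces1d, a carboxylesterase, had 225, 107, 189, 144 and 6.65 CPM in the lungs, against 5.35, 21.4, 1.00, 2.47 and 2.32 CPM in the rims (4.53 ± 1.03, adjusted p = 0.0108, and 5.45 ± 0.71 with 9 libraries), and its 10-library call ended under limma-voom (0.191). The lower gene, the cytochrome P450 Cyp2s1, had 20.5, 20.3, 22.8, 30.3 and 37.1 CPM in the lungs, against 72.7, 56.9, 103, 108 and 129 CPM in the rims (-1.82 ± 0.24, adjusted p = 0.000631).

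Some lung genes never entered the test, because a gene present in 4 lungs alone cannot reach 1 CPM in 5 libraries. A minimum of 1 CPM in 4 of the 9 libraries without the Rat3789 library admitted 319 further genes, of which 202 were called higher in lung and 23 lower. A gene could pass this minimum through the 4 lungs or through 4 rims alone, where it is high, so these counts are a description. Nkx2-1 had 163, 104, 117, 126 and 0.0569 CPM in the lungs, against 0.556 CPM or less in every rim, and 97% of its rim reads could be misplaced mouse reads. Scgb3a2, an airway secretoglobin, had 33.3, 10.5, 206 and 74.0 CPM in those lungs and 0.693 CPM or less in the rims, with the highest value in the lung of Rat3875, which also had the highest Muc5b. Tbx4, a T-box factor of lung mesenchyme, had 45.5 to 75.2 CPM in them and 0.693 CPM or less in the rims. Glp1r, the receptor of a gut hormone, had 129, 38.0, 83.2 and 53.2 CPM and 0.693 CPM or less in the rims.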

How the data were processed

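RNA of lung, tumor rim and other tissue of tumor-bearing rats was sequenced, and reads were divided between rat and mouse genes by the authors. Per the submitters' processing notes, Trim Galore, STAR, featureCounts and limma were used with the builds Rnor 6.0 and GRCm38. The sources used here do not give versions, strand settings or how reads were assigned to a species. The deposited rat and mouse tables hold signal values, CPM on the scale of voom. Dividing each deposited value by its library's constant and taking off the 0.5 reads that voom adds returned integers for 100% of entries (tolerance 0.01 reads). The authors also deposited tables of raw counts for a 4T1 pellet and glands. These counts gave the expected number of misplaced reads per gene.

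The test was limma 3.58.1 with a trend on log2 of the deposited values, with no further pseudocount, two-sided, adjusted by Benjamini-Hochberg over all genes with at least 1 CPM in 5 of 10 libraries. The repeat left out the Rat3789 library and kept the same genes. Alternatives were edgeR 4.0.16 and DESeq2 1.42.0 on recovered reads, limma-voom, other scalings, filters and weights, removal of misplaced reads, the rat as a block, and each library left out in turn. The scripts were tested on simulated data. Lungs and rims of 4 rats come from the same animals. The deviations of their same-animal libraries from the group means correlated at 0.19, -0.09, 0.07 and 0.22. The block is an alternative because Rat3789 and Rat3867 have no partner here and add nothing to its lung estimate. Libraries of a group differed beyond counting error in every pair, with a chi-square of at least 11.1 per degree of freedom.

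The members and lists were chosen with earlier results of these data known. Named genes were the 10 largest increases and decreases called in both fits, with lungs and rims apart and a mean log2 CPM of 2 or more, and the called members of each list with the largest differences, up to 3 for a cell type and 2 otherwise. Other list members were named after their values were seen. Close gene copies, overlapping genes and antisense partners cannot be told apart where counting ignored strand. The 86 gene IDs that share a symbol and 2 without a symbol were tested by ID. Within a tissue each animal is 1 library, so SDs measure the spread between animals. The main test uses that spread and takes no account of the rats that gave both tissues.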

Additional observations from a re-analysis of the deposited data

Results flagged for a closer look

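Dixon's test on log2 CPM, applied to the lungs and to the rims of each of 87 named genes, marked 35 of 174 groups of 5 libraries, and it marked the share of rat reads as well. About 1 group in 20 would be marked by chance if groups were independent and genes were named without regard to their values. These groups share the same libraries, and the genes were named largely by their calls, for some also without the Rat3789 library. The number of marks is therefore a description and not a test against chance. The Rat3789 library, already singled out by its profile, was the extreme one in 30 of the 36 cases.

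That library was far below the other lungs for epithelial genes: the surfactant genes Sftpa1 (5.06 CPM), Sftpb (1.99 CPM), Sftpc (1.88 CPM) and Sftpd (2.45 CPM), the type 2 gene Lamp3 (0.398 CPM), the type 1 genes Ager (8.25 CPM), Aqp5 (0.284 CPM) and Cldn18 (0.398 CPM), the airway genes Scgb1a1 (1.54 CPM) and Aldh1a1 (3.24 CPM), the keratins Krt8 (27.8 CPM) and Krt18 (8.25 CPM), and Ly6i (1.65 CPM), Retnla (0.171 CPM) and Ces1d (6.65 CPM). It was also low for the fibroblast genes Tcf21 (0.967 CPM), Gpc3 (20.1 CPM) and Foxf1 (1.99 CPM), the capillary gene Sema3c (43.1 CPM), the collagen Col4a6 (1.31 CPM), the inhibitor Timp3 (36.0 CPM), the neutrophil genes S100a9 (150 CPM) and Mmp8 (8.13 CPM) and the chemokine Cxcl3 (1.65 CPM). It was above the other lungs for Lum (513 CPM), Pdgfrb (215 CPM), Mfap5 (107 CPM), Cfd (364 CPM), C4b (578 CPM) and Cpa3 (36.5 CPM). The report gives the counts of each list without it as well.

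The 6 other cases were spread over 4 libraries. The lung of Rat3877 was low for Plekhg4 (0.162 CPM). The rim of Rat3867 was low for Sftpb (0.101 CPM) and Sftpa1 (0.302 CPM), and the rim of Rat3877 for Fbln2 (746 CPM). The rim of Rat3876 was high for Bmp6 (2.99 CPM) and for the share of rat reads (34.3%).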

How the results depend on the processing

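With 10 libraries the number of genes higher in lung was 1458, and it was 2435 under total-count scaling and 2245 with library weights. Leaving out single libraries gave 935 (without the lung of Rat3875) to 2137 (without that of Rat3789). With 9 libraries the 2137 higher genes became 3325 under total-count scaling. The difference in the share of rat reads was 5.05 to 9.59 points over the libraries left out in turn. With the rat as a block, which pairs the lungs and rims of 4 animals, 3690 genes were called, 1886 higher and 1804 lower, and the block ended the 9-library call of Tekt1 (adjusted p = 0.0519), the calls given in the report and no other call named there. limma-voom with 10 libraries called 2555 genes, 1075 higher and 1480 lower. No called value changed its direction in any alternative. Of 1892 recomputed values of the named genes with 10 libraries 1715 kept their side of the threshold, 10 gained and 167 lost a call, and 34 of 82 called genes lost it at least once. Without the Rat3789 library 10 of 1882 were lost, in 4 of 81 genes (Tekt1, Cd8a, Slc4a1 and Aurka). limma-voom with 10 libraries ended 26 calls of genes named by rule, and those of Wt1 and Msln. Beside those given in the report, these were Sftpd (adjusted p = 0.363), Sftpb (0.275), Sftpa1 (0.112), Sftpc (0.133), Scgb1a1 (0.26), Aqp5 (0.593), Cldn18 (0.569), Lamp3 (0.574), Ager (0.0729), Ly6i (0.414), Retnla (0.626), Timp3 (0.0512), Slc4a1 (0.0905), Siglec5 (0.0875), Cfd (0.0608) and Cpa3 (0.059). With 10 libraries it called 6 surfactant, 3 lung fibroblast, 4 neutrophil, 3 basement membrane, 1 chemokine and 0 metalloproteinase list members higher. With 10 libraries edgeR and DESeq2 both ended the calls of Cfd (0.136 and 0.0981), Cd163 (0.121 and 0.0744) and C4b (0.0954 and 0.0538), and edgeR those of Siglec5 (0.0563), Fcer1a (0.0512), Cpa3 (0.0855) and Eln (0.073). Subtracting misplaced reads ended those of Cfd (0.0509), Cpa3 (0.0512) and Timp3 (0.0512) and those given in the report, upper-quartile scaling those of Siglec5 (0.0533) and Timp3 (0.0504), and total-count scaling that of Cfd (0.0519). The cause was not tested. With 1 library per animal and tissue and rim depths of 4900651 reads or more, genes under about 1 CPM rest on few reads. Misplaced mouse reads limit how low a level can be read.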
